A study of Mus musculus with 21 samples.

Results

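The genes described here are 9 genes of lipofibroblasts and of fatty acid uptake and storage, taken by symbol from the per-library tables of mouse lung epithelium and lung fibroblasts: Inmt, Plin2, Lpl, Cd36, Fabp4, Fabp5, Pparg, Limch1 and Pnpla2. All 9 symbols were listed in the tables of both cell types, out of 25035 genes listed in either. The 21 libraries came from 3' SAGE-seq, which counts polyadenylated transcripts by 1 tag read close to their 3' end, run on Ion Proton sequencers. Cells were sorted from C57BL/6 lungs with the Col1a2-GFP transgene, in which a collagen gene's regulatory sequence drives green fluorescent protein, and both cell types came from such mice. Epithelial cells were live, positive for Epcam and negative for CD31, CD45, Ter119, CD146 and GFP, although the label of the E18.5 epithelium does not name the GFP gate. Fibroblasts were live and GFP-positive and lacked Epcam and the same lineage markers, so that fibroblasts without the transgene's activity are outside the sort. Each cell type had 2 libraries at E18.5 and at P28 and at P0.5, P2 and P7 between them, and fibroblasts had 1 more at P56. Since no label ties the numbered libraries to separate animals, p-values reflect only how far these libraries differ, which may be technical.

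Lipofibroblasts are fibroblasts of the alveolar wall that hold lipid droplets and lie next to alveolar type II cells, the epithelial cells that make surfactant. They are held to take fatty acids from circulating lipoproteins and to pass lipid on for surfactant synthesis. In this pathway Lpl frees fatty acids from triglyceride, Cd36 takes them up, Fabp4 and Fabp5 carry them in the cell, Plin2 coats the droplet, Pnpla2 starts its breakdown and the nuclear receptor Pparg drives many of these genes, while Inmt and Limch1 serve as markers of alveolar fibroblasts.

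Recovered depth was 2146071 to 5729829 reads per library, and 3 reads, the limit that a count of 0 allows, correspond to 0.403 to 1.37 units of the deposited normalised value. Libraries of 1 group differed by more than sampling noise, with a chi-square statistic per degree of freedom of 4.64 to 10.6. The fibroblast library at P56 stood apart: its values summed to 769260 against 896099 to 1155140 in the other libraries, and its 10 most abundant genes took 11.5% of its reads against 14.0% to 20.8%. Summed over 8 epithelial markers, the level was 8630 to 23652 in the epithelium and 9.24 to 44.4 in the fibroblasts. Summed over 6 fibroblast markers, it was 4617 to 26818 in the fibroblasts and 29.3 to 266 in the epithelium, highest in P2 replicate 1. Adipocyte markers were at or near 0 throughout: in the fibroblasts only Adipoq of 6 was listed, at 0 to 0.374, and in the epithelium the summed level of the 3 listed was 0 to 0.973.

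Because each cell type's tables had their own normalisation, levels were set across cell types only on a joint scale (joint CPM), on which the 20 libraries of the 5 shared stages were scaled together to a library size of 1000000 reads. Changes within a cell type are on the log2(value + 1) scale and differences between cell types on the log2(joint CPM + 1) scale, which both understate changes of low genes. A gene was called at a Benjamini-Hochberg adjusted p under 0.05 in limma, over all genes tested. In bulk libraries, fewer cells of a type and less RNA per cell cannot be told apart.

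On the mean over the 5 shared stages, some members were higher in the epithelium and others in the fibroblasts. Pparg was too low to be tested. Cd36 entered the test only through the epithelium, and Fabp4 only through the 2 P0.5 fibroblast libraries, so their calls were set by the filter on low values (a value of 3 in at least 2 libraries) and are not counted. The other 6 members all differed, where 62.4% of all genes tested did. Higher in the epithelium were Fabp5, Pnpla2 and Lpl, against 32.5% of all genes in that direction. Higher in the fibroblasts were Inmt, Limch1 and Plin2, against 29.9%. The uptake gene Cd36 stood 6.29 (SE 0.15) higher in the epithelium, and Fabp5 differed by 5.06 (SE 0.18), Pnpla2 at 1.99 (SE 0.08) and Lpl at 1.66 (SE 0.11). On the fibroblast side the difference, epithelium minus fibroblasts, was -5.22 (SE 0.20) for Inmt, -2.87 (SE 0.08) for Limch1 and -1.21 (SE 0.07) for Plin2. For Fabp4, which passed the filter only through the P0.5 fibroblasts, it was -0.95 (SE 0.22) over the 5 shared stages. The mean for Plin2 hides a reversal. Its mean joint CPM was 197 in the epithelium and 1256 in the fibroblasts at E18.5, but 591 and 497 at P28.

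**Figure D1:**
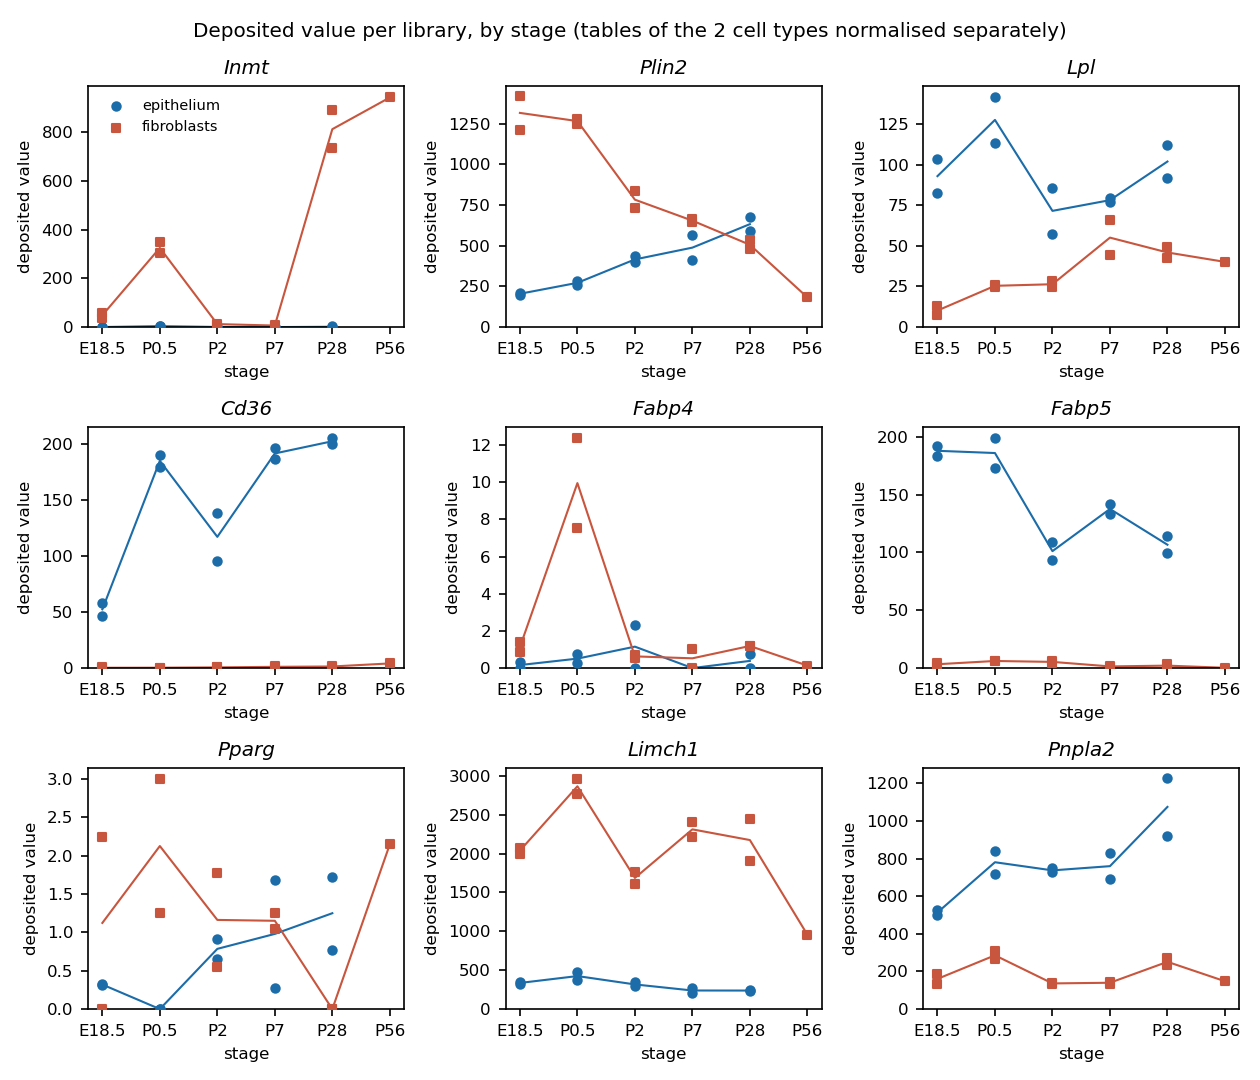
Deposited normalised value (vertical axis, linear from 0, a separate scale in each panel) of the 9 members in each library by stage (horizontal axis), with epithelium as circles, fibroblasts as squares and lines through the group means. Inmt in fibroblasts is high at P0.5, P28 and P56, Plin2 runs in opposite directions in the 2 cell types, and Fabp4 and Pparg lie at a few units or less outside the P0.5 fibroblasts. Each cell type has its own normalisation.

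**Figure D2:**
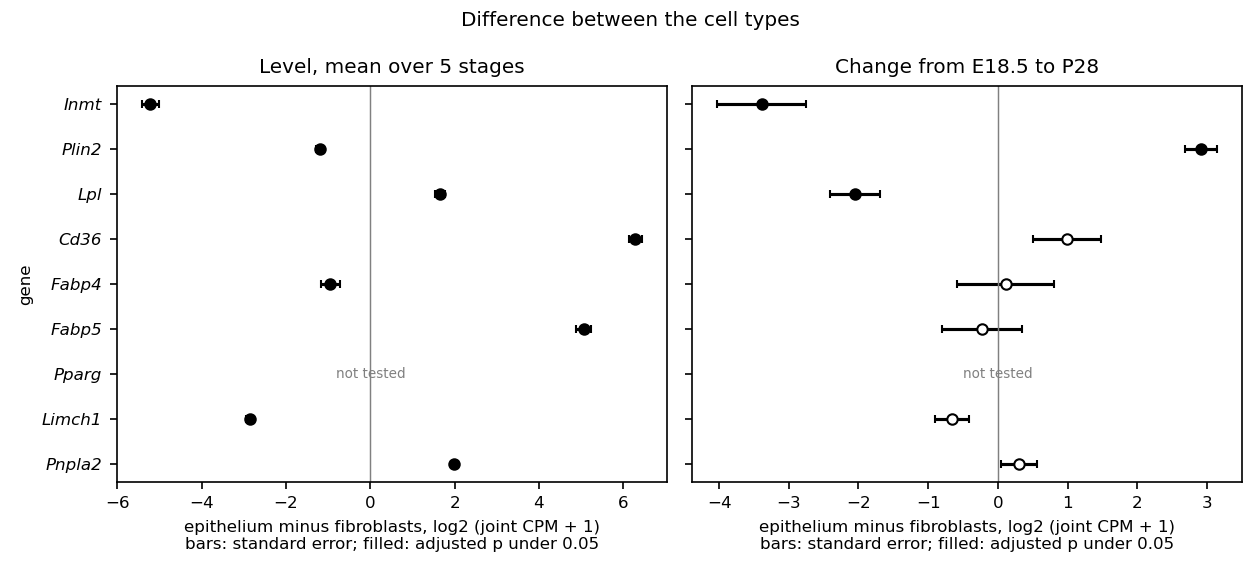
Difference between epithelium and fibroblasts (horizontal axis, log2(joint CPM + 1), epithelium minus fibroblasts) for each member as the mean over the 5 shared stages (left) and as the change from E18.5 to P28 (right). Points are limma estimates with standard error bars, filled where the adjusted p was under 0.05; 8 points are filled on the left, of which Cd36 and Fabp4 passed the filter only through 1 cell type, and 3, Plin2, Lpl and Inmt, on the right.

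Inmt, the indolethylamine N-methyltransferase, lies at chr6:55170626-55175043 on the minus strand of GRCm38 (GENCODE M21). Its start-site window is printed because Inmt made the largest stage-to-stage moves of the 9 genes in the fibroblasts. Promoter windows here run from 250 bases before to 50 bases after a start site in RefSeq's annotation of GRCm38.p6, and 6 of the 9 members matched at least 1. They were searched on both strands for the TATA box TATAAA, the E-box CACGTG, the nuclear receptor half-site AGGTCA, the glucocorticoid receptor half-site AGAACA and a direct repeat of AGGTCA with 1 base between the copies. The Inmt window is chr6:55174941-55175240, minus strand, with the motif matches in capitals.
Inmt: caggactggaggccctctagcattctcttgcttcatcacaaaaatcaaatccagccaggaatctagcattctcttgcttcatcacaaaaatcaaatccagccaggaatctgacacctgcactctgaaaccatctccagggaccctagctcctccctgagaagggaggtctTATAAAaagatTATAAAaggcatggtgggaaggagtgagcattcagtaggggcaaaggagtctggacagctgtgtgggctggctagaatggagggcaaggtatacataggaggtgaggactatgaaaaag
The capitals mark 2 copies of TATAAA, at bases 171 to 176 and 182 to 187 of the window. TATAAA was in 13.6% of all 32851 windows.

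In fibroblasts Inmt rose at birth, fell after it and rose again between P7 and P28. The values were 58.7 and 38.4 at E18.5, 302 and 348 at P0.5, 14.6 and 9.87 at P2, 7.09 and 5.43 at P7, 735 and 889 at P28, and 942 at P56. No 2 stages overlapped. The change was 2.75 (SE 0.24, adjusted p 3.628e-07) from E18.5 to P0.5, -4.64 (SE 0.24, adjusted p 3.599e-10) from P0.5 to P2, and 6.81 (SE 0.24, adjusted p 7.393e-13) from P7 to P28. From E18.5 to P28 it was 4.06 (SE 0.24, adjusted p 4.613e-10). The fall from P2 to P7, -0.85 (SE 0.24, adjusted p 0.0417), was called in 3 of its 10 alternatives, whose adjusted p ranged from 0.0362 to 0.368. It missed the threshold without fibroblast P2 replicate 1 (0.368), P7 replicate 1 (0.0638) or P7 replicate 2 (0.216). The summed level of the 6 fibroblast markers was 6968 to 7907 at E18.5, 4617 to 5046 at P0.5 and 10022 to 10757 at P2. It was 10403 to 11532 at P7, 25646 to 26818 at P28 and 9751 at P56. The high Inmt at P56 came with a lower marker sum than at P28, but single markers differed. Dcn was 7291 and 11433 at P28 and 1909 at P56. Pdgfra was 12.4 and 14.9 at E18.5, 33.98 and 35.56 at P0.5, and 10.3 and 17.6 at P2. It was 6.56 and 10.02 at P7, 112 and 102 at P28, and 297 at P56. The part of these markers in the Inmt values was not tested.

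Epithelial libraries held 36 Inmt reads in all, against 14037 in the fibroblasts. Of these, 24 lay in the P0.5 libraries, at values of 4.77 and 3.11, and Inmt passed the filter on low values only through that stage. The E18.5 epithelium held 1 read, so P0.5 was 24.6 times higher per read, with an exact 95% interval of 4.02 to 1014 for counting error only. Having passed the filter through the stage where it was high, its call at this step is no support for a difference. The change, 2.09 (SE 0.62, adjusted p 0.0374), was called in 3 of 7 alternatives, which ranged from 0.0235 to 0.152. It was lost without E18.5 replicate 1 (adjusted p 0.152) or replicate 2 (0.0825), in edgeR (0.0686) and with no filter (0.0561). Both P7 epithelial libraries were at 0 reads, which allows up to 0.336 over the group. At P28 the epithelial libraries held 0 and 9 reads. The 6 fibroblast markers summed to 58.5 to 58.8 in the P0.5 epithelium and 92.2 to 100.9 at E18.5, and their part in the Inmt values was not tested.

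Limch1, an actin and myosin associated protein, lies at chr5:66745827-67057158 on the plus strand, and its values in fibroblasts ran from 1608 to 2963 until P28 and were lower at P56. They were 2076 and 1999 at E18.5, 2767 and 2963 at P0.5, 1608 and 1765 at P2, 2405 and 2217 at P7, 2442 and 1905 at P28, and 957 at P56. The P0.5 libraries were the highest and the P56 library the lowest, while P7 and P28 overlapped. Limch1 fell by 0.76 (SE 0.18, adjusted p 0.00565) from P0.5 to P2 and by 1.17 (SE 0.22, adjusted p 0.000443) from P28 to P56. The first of these missed the threshold without fibroblast P0.5 replicate 2 (adjusted p 0.0739) or P2 replicate 1 (0.0763), in a range of 1.876e-05 to 0.0763 over 10 alternatives. In the epithelium Limch1 ran from 211 to 475 and no stage comparison was called, with a change of -0.49 (SE 0.18, adjusted p 0.0669) from E18.5 to P28. The spans of 7 other annotated genes overlap that of Limch1, none of them over its exons and none with a row in the tables.

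Plin2, the perilipin that coats lipid droplets in most cells, lies at chr4:86648386-86670060 on the minus strand. Its window, chr4:86670010-86670309 on the minus strand, is printed because Plin2 moved in opposite directions in the 2 cell types.
Plin2: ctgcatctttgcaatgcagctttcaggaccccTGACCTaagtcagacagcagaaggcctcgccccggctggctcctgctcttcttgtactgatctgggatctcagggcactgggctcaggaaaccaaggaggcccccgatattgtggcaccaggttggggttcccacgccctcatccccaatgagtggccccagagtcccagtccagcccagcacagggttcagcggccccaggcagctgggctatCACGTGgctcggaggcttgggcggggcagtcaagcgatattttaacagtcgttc
Capitals mark AGGTCA on the opposite strand (bases 33 to 38, read here as TGACCT) and CACGTG (bases 247 to 252). AGGTCA was in 16.3% of all windows, CACGTG in 7.15%, AGAACA in 19.0% and the direct repeat in 0.0396% (13 windows). No member window held the direct repeat.

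Plin2 fell in fibroblasts from E18.5 to P28. Fibroblast values were 1420 and 1213 at E18.5, 1281 and 1251 at P0.5, 730 and 836 at P2, 665 and 643 at P7, 532 and 479 at P28, and 182 at P56. Only E18.5 and P0.5 overlapped. The change was -1.38 (SE 0.17, adjusted p 4.072e-06) from E18.5 to P28, and 14.9% of all genes tested were called lower in that comparison. Of the 5 single steps 2 were called, P0.5 to P2 at -0.70 (SE 0.17, adjusted p 0.00793) and P28 to P56 at -1.46 (SE 0.21, adjusted p 3.163e-05). The P0.5 to P2 call was lost without fibroblast P0.5 replicate 1 (adjusted p 0.0662), P0.5 replicate 2 (0.0628) or P2 replicate 1 (0.107), in a range of 9.75e-05 to 0.107 over 10 alternatives.

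Epithelial Plin2 rose over the same period. Its values were 198 and 211 at E18.5, 282 and 262 at P0.5, 397 and 434 at P2, 564 and 412 at P7, and 674 and 591 at P28. Every stage lay above the one before except P7, which overlapped P2. The rise from E18.5 to P28 was 1.62 (SE 0.18, adjusted p 2.257e-05), against 13.5% of all genes called higher, and no single step was called. The nearest was P0.5 to P2 at 0.61 (SE 0.18, adjusted p 0.0502).

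On the joint scale, Plin2 in the epithelium went from 193 and 200 CPM at E18.5 to 616 and 566 at P28, and in the fibroblasts from 1366 and 1146 to 522 and 473. The fibroblasts were higher at E18.5 and the epithelium at P28, with no overlap at either stage. The difference between the cell types in this change was 2.91 (SE 0.23, adjusted p 3.534e-08), where 15.1% of all genes tested were called. It was called in all 14 alternatives, at 2.79 to 3.12.

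Macrophages hold lipid too and express Plin2, Cd36 and Lpl. The summed level of 10 macrophage markers in the epithelium was 44.1 to 121 at E18.5, 88.8 to 118 at P0.5, 74.3 to 284 at P2, 13.7 to 22.8 at P7 and 715 to 756 at P28. Tyrobp made up most of the sum at every stage but P7. It was 30.5 and 105 at E18.5, 0.187 and 0 at P7, and 703 and 642 at P28. At P7, 5 of the 10 markers were at 0 in both libraries (Ptprc, Marco, Chil3, Siglecf and Ear2), and at P28 none was. Epithelial Plin2 was 198 and 211 at E18.5, 564 and 412 at P7, and 674 and 591 at P28. The part of macrophages in the Plin2, Cd36 and Lpl values was not tested at any stage.

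Lpl, the secreted lipase that frees fatty acids from lipoprotein triglyceride, lies at chr8:68880491-68907448 on the plus strand and rose in the fibroblasts. Its fibroblast values were 7.58 and 12.8 at E18.5, 26.1 and 24.7 at P0.5, 24.5 and 28.2 at P2, 65.9 and 44.3 at P7, 49.6 and 42.3 at P28, and 40.1 at P56. E18.5 was the lowest stage, P0.5 and P2 overlapped, and so did P7 and P28. From E18.5 to P28 the rise was 2.10 (SE 0.29, adjusted p 1.297e-05), where 18.7% of all genes were called higher. The step to P0.5, 1.28 (SE 0.29, adjusted p 0.00496), was lost without fibroblast E18.5 replicate 1 (adjusted p 0.0655) or P0.5 replicate 1 (0.0511), in a range of 0.00369 to 0.0655 over 10 alternatives. The step from P2 to P7, 1.01 (SE 0.29, adjusted p 0.0392), was lost without P2 replicate 1 (0.248), P2 replicate 2 (0.105) or P7 replicate 1 (0.26), in a range of 0.0168 to 0.26 over 10 alternatives.

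In the epithelium Lpl stood higher and moved less. Epithelial values were 82.4 and 104 at E18.5, 142 and 113 at P0.5, 57.4 and 85.7 at P2, 77.1 and 79.2 at P7, and 112 and 91.9 at P28. P0.5 was the highest stage, and P2 and P7 overlapped at the bottom. The change from E18.5 to P28 was 0.13 (SE 0.23, adjusted p 0.721). The fall from P0.5 to P2, -0.84 (SE 0.23, adjusted p 0.0339), was lost without epithelial P0.5 replicate 1 (adjusted p 0.231), P0.5 replicate 2 (0.109) or P2 replicate 1 (0.225), in a range of 0.0105 to 0.231 over 10 alternatives. The change from E18.5 to P28 differed between the cell types by -2.05 (SE 0.36, adjusted p 0.000448), and this held in all 14 alternatives.

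Cd36, the fatty acid translocase of the plasma membrane, lies at chr5:17781690-17888801 on the minus strand. A RefSeq start site inside this span gives the window chr5:17835847-17836146 on the minus strand, printed because Cd36 separated the cell types most.
Cd36: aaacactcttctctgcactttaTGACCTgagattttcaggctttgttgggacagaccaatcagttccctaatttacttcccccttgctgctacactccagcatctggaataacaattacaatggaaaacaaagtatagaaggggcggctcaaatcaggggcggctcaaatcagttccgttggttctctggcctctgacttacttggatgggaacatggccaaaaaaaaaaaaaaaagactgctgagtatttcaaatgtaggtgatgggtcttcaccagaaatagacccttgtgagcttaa
The capitals, bases 23 to 28, mark AGGTCA on the opposite strand. A match is a description of the letters and not a bound site.

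Cd36 was an epithelial gene in these libraries and rose at birth. Epithelial values were 58.1 and 47 at E18.5, 180 and 191 at P0.5, 95.7 and 139 at P2, 197 and 187 at P7, and 200 and 205 at P28. E18.5 lay below every later stage, P2 was the next lowest, and P0.5 and P7 overlapped. The rise was 1.81 (SE 0.20, adjusted p 0.000115) from E18.5 to P0.5 and 1.94 (SE 0.20, adjusted p 1.199e-05) from E18.5 to P28, and both were called in all 10 alternatives. The step from P0.5 to P2 was -0.68 (SE 0.20, adjusted p 0.0502), with adjusted p-values of 0.0243 to 0.309 over 10 alternatives, 5 of them under the threshold. The macrophage marker sum was 44.1 to 121 at E18.5, 88.8 to 118 at P0.5 and 74.3 to 284 at P2. It was 13.7 to 22.8 at P7 and 715 to 756 at P28, and its part in the Cd36 values was not tested. Endothelial markers, of a cell type known for Cd36, summed to 28.1 to 50.9 in the E18.5 epithelium and 3.92 to 15.6 later. Kdr made up most of the E18.5 sum, at 45.4 and 23.4, while Pecam1 and Cdh5 were at 0 in both libraries. The part of the endothelial markers in the Cd36 values was not tested.

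In the fibroblasts Cd36 was near the floor, with 56 reads over 11 libraries and 31 of them at P56. It was below the filter and was not tested there. Its value was 0 to 2.07 up to P28 and 4.16 at P56, where 5 listed endothelial markers summed to 11.9, against 0.427 to 9.97 at the earlier stages.

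Fabp5, the epidermal fatty acid binding protein, lies at chr3:10012548-10016607 on the plus strand and was also an epithelial gene. It has a near-identical pseudogene copy, and the sources used here do not say how tags shared with it were counted. Epithelial values were 192 and 184 at E18.5, 173 and 199 at P0.5, 93.4 and 109 at P2, 134 and 142 at P7, and 114 and 99.4 at P28. E18.5 and P0.5 overlapped at the top, P2 and P28 at the bottom, and P7 lay between them. Fabp5 fell by 0.81 (SE 0.18, adjusted p 0.00375) from E18.5 to P28, where 11.3% of all genes tested were called lower, and this was called in all 10 alternatives. The step from P0.5 to P2, -0.87 (SE 0.18, adjusted p 0.00988), was lost without epithelial P0.5 replicate 2 (adjusted p 0.113) or P2 replicate 1 (0.0693), in a range of 0.000465 to 0.113 over 10 alternatives. Fibroblast values ran from 0.269 to 6.29 with no stage comparison called.

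Fabp4, the adipocyte fatty acid binding protein, lies at chr3:10204088-10208576 on the minus strand and was low in both cell types. The fibroblasts held 80 reads, of which 57 were at P0.5, and Fabp4 passed the filter there only through that stage. Fibroblast values were 1.40 and 0.853 at E18.5, 7.55 and 12.4 at P0.5, 0.711 and 0.548 at P2, 1.05 and 0 at P7, 1.18 and 1.20 at P28, and 0.134 at P56. The P0.5 libraries lay above every other library. The log2 difference was 2.34 (SE 0.53) from E18.5 to P0.5 and -2.71 (SE 0.53) from P0.5 to P2, given as a description, since a gene that passes the filter through 1 stage had to differ there. At the same stage the 5 endothelial markers listed in the fibroblast tables, of another cell type known for Fabp4, summed to 3.15 and 3.37, against 0.427 and 3.09 at E18.5 and 2.13 and 4.11 at P2. Cdh5 and Cldn5 among them were at 0 at P0.5, and the adipocyte gene Adipoq was at 0.315 and 0.374. The part of these markers in the Fabp4 values was not tested. The epithelium held 13 reads in all, 7 of them in P2 replicate 2.

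Pparg, the nuclear receptor of adipocyte differentiation, lies at chr6:115360951-115490399 on the plus strand and was close to the detection floor. There were 24 reads over 10 epithelial libraries, 0.692 CPM (exact Poisson 95% interval 0.443 to 1.03), and 50 over 11 fibroblast libraries, 1.35 CPM (0.999 to 1.77). These intervals cover counting error only. Fibroblast values were 2.25 and 0 at E18.5, 1.26 and 2.99 at P0.5, 1.78 and 0.548 at P2, 1.05 and 1.25 at P7, 0 and 0 at P28, and 2.15 at P56. At P28 a count of 0 in both libraries allows up to 0.509 over the group. Epithelial values were between 0 and 1.73. Pparg was below the filter on low values in both cell types, and no stage test was run.

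Pnpla2, the adipose triglyceride lipase that takes the first fatty acid from stored triglyceride, lies at chr7:141455198-141460743 on the plus strand. It rose in both cell types between E18.5 and P28. Epithelial values were 527 and 501 at E18.5, 841 and 721 at P0.5, 727 and 748 at P2, 828 and 692 at P7, and 1227 and 923 at P28. E18.5 lay below and P28 above all other stages, and the stages between them overlapped. The rise from E18.5 to P28 was 1.05 (SE 0.18, adjusted p 0.000731), called in all 10 alternatives. The step from E18.5 to P0.5, 0.60 (SE 0.18, adjusted p 0.0397), was called in 5 of 10 alternatives with adjusted p-values of 0.0136 to 0.222. It was lost on leaving out any of E18.5 replicate 1 (0.115), E18.5 replicate 2 (0.156), P0.5 replicate 1 (0.222) or P0.5 replicate 2 (0.083).

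Fibroblast Pnpla2 values were 188 and 133 at E18.5, 307 and 264 at P0.5, 141 and 132 at P2, 145 and 135 at P7, 232 and 271 at P28, and 148 at P56. P0.5 and P28 overlapped as the high stages. The changes were 0.84 (SE 0.20, adjusted p 0.00692) from E18.5 to P0.5, -1.06 (SE 0.20, adjusted p 0.00111) from P0.5 to P2, 0.84 (SE 0.20, adjusted p 0.00496) from P7 to P28 and -0.75 (SE 0.24, adjusted p 0.0234) from P28 to P56. Of these, P0.5 to P2 was called in all 10 alternatives. E18.5 to P0.5 was lost without E18.5 replicate 2 (adjusted p 0.12) or P0.5 replicate 1 (0.0933), in a range of 0.000882 to 0.12. P7 to P28 was lost without P28 replicate 2 (0.0535, in a range of 0.000462 to 0.0535). The rise from E18.5 to P28, 0.66 (SE 0.20, adjusted p 0.0145), was lost without E18.5 replicate 2 (0.208) or P28 replicate 2 (0.103), in a range of 0.00574 to 0.208.

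**Figure D3:**
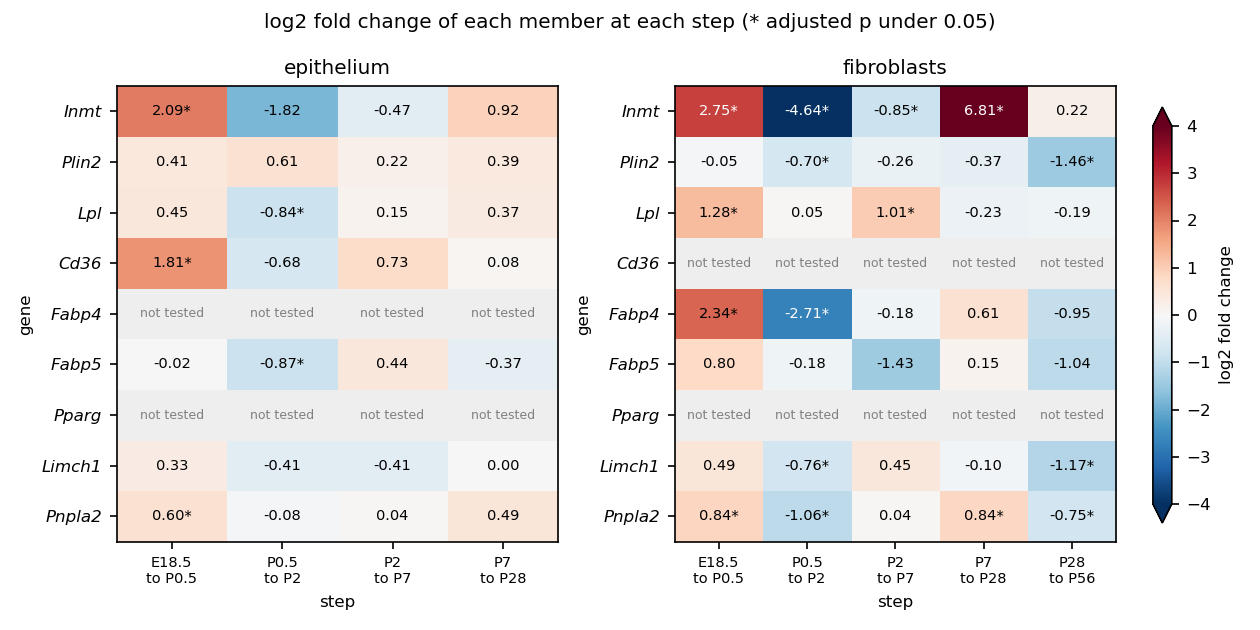
Log2 fold change (colour and printed number, log2(value + 1) scale) of each member (rows) at each stage-to-stage step (columns) in the epithelium (left) and the fibroblasts (right), with an asterisk where the limma adjusted p was under 0.05. Grey cells were below the filter; the P0.5 to P2 step in the fibroblasts has 5 asterisks, all on falls and 1 of them on Fabp4, which passed the filter only through P0.5, and P2 to P7 and P7 to P28 in the epithelium have none.

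Up to P28, most of the called steps lay from E18.5 to P0.5 and from P0.5 to P2, but their number was not stable. With 1 library left out, the lowest count over all members tested was 1 and then 0 in the epithelium. In the fibroblasts it was 1 and then 2. From E18.5 to P0.5, 2 of 6 members tested rose in the epithelium (Cd36 and Pnpla2), where 14.3% of all genes were called, and 3 of 6 rose in the fibroblasts (Inmt, Lpl and Pnpla2), where 15.4% were. These and the next counts leave out epithelial Inmt and fibroblast Fabp4, which passed the filter only through P0.5. From P0.5 to P2, 2 of 6 fell in the epithelium (Fabp5 and Lpl; 8.82% of all genes called) and 4 of 6 fell in the fibroblasts (Inmt, Pnpla2, Limch1 and Plin2; 16.9%). From P2 to P7 the fibroblasts had 2 calls, Lpl higher and Inmt lower (6.64%), and the epithelium none in limma or edgeR, 1 in DESeq2 and 3 of all 7 tested at an unadjusted p under 0.05 (3.71%). From P7 to P28 the fibroblasts had 2 calls, Inmt and Pnpla2 higher (20.8%), and the epithelium none in limma, edgeR or DESeq2 and 2 of all 7 tested at an unadjusted p under 0.05 (7.28%). The whole interval from E18.5 to P28 had 4 calls of 6 in the epithelium (24.9%) and 4 of 6 in the fibroblasts (33.6%).

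The P56 fibroblasts can be set against P28 only with 1 library, which was assumed to vary like the other groups. There 31.2% of all genes tested were called, and the median change of all genes was -0.12 on the deposited scale and 0.06 after TMM scaling. Limch1, Plin2 and Pnpla2 were called lower, with log2 changes relative to the deposited-scale median of -1.06, -1.35 and -0.64. Under TMM scaling the Pnpla2 call was lost (adjusted p 0.104), as it was without fibroblast P28 replicate 2 (0.0973), in a range of 0.0165 to 0.104 over 8 alternatives. Inmt changed by 0.22 (SE 0.30, adjusted p 0.62).

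Beyond the interactions of Plin2 and Lpl, the change of Inmt from E18.5 to P28 differed between the cell types by -3.39 (SE 0.64, adjusted p 0.000868). From P7 to P28, Inmt was the only member of 8 whose change differed in limma, by -5.94 (SE 0.64, adjusted p 3.803e-06), where 8.59% of all genes were called. Both Inmt values rest on an epithelial arm of 0 to 9 reads per library, so a fitted fold is no bound. With a pseudocount of 5 they were -3.74 and -5.90, and the count models called neither. From E18.5 to P28, edgeR gave -1.16 (adjusted p 0.866) and DESeq2 -0.92 (adjusted p 0.811), in a range of 7.477e-08 to 0.866 over 14 alternatives. From P7 to P28, edgeR gave -1.75 (adjusted p 0.904) and DESeq2 -1.87 (adjusted p 0.61), in a range of 1.536e-10 to 0.904. Plin2 differed by 0.71 (SE 0.23, limma adjusted p 0.0634) at that step. It was called in DESeq2 (adjusted p 0.0233) and in limma with total-count scaling (0.0106), but not in edgeR. From E18.5 to P0.5 no member's change differed in limma, edgeR or DESeq2, with 3 of 8 at an unadjusted p under 0.05 and 3.53% of all genes called. The nearest was Cd36 at 1.71 (SE 0.48, adjusted p 0.0535). Its adjusted p ranged from 0.00159 to 0.6859 over 14 alternatives, and 2 of them called it. Cd36 entered this fit only through the epithelium, and the fibroblasts held 0 to 2 Cd36 reads per library at these stages. The value therefore mostly restates the epithelial rise and cannot decide whether the cell types differ in this change.

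Other genes of the same pathways were counted over 7 lists, to be read against the shares of all genes: from E18.5 to P28, 13.5% were called higher and 11.3% lower in the epithelium and 18.7% and 14.9% in the fibroblasts, and 32.5% were higher and 29.9% lower in the epithelium than in the fibroblasts. The first list holds lipofibroblast and alveolar fibroblast markers other than the members. In the comparison of the cell types, 23 of 24 tested were lower in the epithelium and 1 was higher, with a median of -4.55 against 0.01 for all genes. The list was chosen as fibroblast markers, so this direction was set by the choice and the count is a description only. Of the list, 24 passed the filter on low values in the fibroblast fit and 13 in the epithelial fit, so the filter favoured the same direction. In the fibroblasts from E18.5 to P28, 10 of 24 rose and 11 fell, with a median of -0.30 against 0.01. Lrat, which esterifies retinol for storage, rose from a mean of 9.19 to 295 (4.87, SE 0.32), and Npnt, a matrix ligand of integrin, rose from 651 to 3246 (2.32, SE 0.17). Gyg, the primer protein of glycogen, fell from 399 to 57.4 (-2.78, SE 0.19), and Adh1, an alcohol dehydrogenase that acts on retinol, fell from 610 to 120 (-2.33, SE 0.18). In the epithelium 1 of 13 rose and 6 fell, among them Col13a1 (24.6 to 2.17) and Mfap4 (21.4 to 1.35). The fibroblast marker sum there went from 92.2 and 100.9 at E18.5 to 30.9 and 38.3 at P28, and its part in those falls was not tested.

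Lipolysis genes included G0s2, the inhibitor of the Pnpla2 protein, which is also on the marker list. G0s2 fell in fibroblasts from a mean of 8282 ± 619 (SD, n = 2) to 2109 ± 505 (-1.99, SE 0.20, adjusted p 2.617e-07) and in the epithelium from 133 ± 7.55 to 29.2 ± 6.72 (-2.16, SE 0.24, adjusted p 2.092e-05). Pnpla2 was higher at P28 than at E18.5 in both, but its fibroblast call was lost without E18.5 replicate 2 or P28 replicate 2. Over the list, 1 of 14 rose and 6 fell in the fibroblasts (median -0.63), and 1 rose and 2 fell of 14 in the epithelium (median 0.14). Prkaca, a catalytic subunit of protein kinase A, fell in both, by 1.29 in fibroblasts and by 1.41 in epithelium. Between the cell types, 9 of 16 were higher in the epithelium and 5 lower, with G0s2 lower by -5.36 (SE 0.09).

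Among fatty acid transport, binding and activation genes, 5 of 10 rose and 1 fell in the fibroblasts (median 1.13), and 2 of 11 rose and 2 fell in the epithelium (median 0.22). In fibroblasts the acyl-CoA binding protein Dbi rose from 11.3 to 41.4 (1.82, SE 0.28), and the acyl-CoA synthetase Acsl1 rose from 3.52 to 13.9 (1.84, SE 0.44). Cav1, the coat protein of caveolae, rose in fibroblasts (10.02 to 26.4; 1.32, SE 0.28) and fell in the epithelium (131 to 34.0; -1.92, SE 0.23). In the epithelium Acsl4 rose from 10.4 to 43.0 and Acsl5 from 59.4 to 153. Between the cell types, 10 of 11 were higher in the epithelium, with Acsl5 at 4.34 (SE 0.18), and 1 lower, Slc27a3.

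Lipoprotein lipase partners and lipoprotein receptors moved both ways: 4 of 14 rose and 3 fell in the fibroblasts (median -0.06), and 2 of 17 rose and 4 fell in the epithelium (median -0.04). Angptl4, a secreted inhibitor of Lpl, rose in fibroblasts from 7.64 to 26.8 (1.70, SE 0.27), and the lipoprotein receptor Vldlr fell from 728 to 280 (-1.38, SE 0.18). Apoe, an apolipoprotein that macrophages also make, rose in the epithelium from 15.9 to 43.7 (1.59, SE 0.40), where the macrophage marker sum went from 44.1 to 121 at E18.5 to 715 to 756 at P28, and its part was not tested. Between the cell types, 7 of 17 were higher and 7 lower in the epithelium, with Lrp1 at -5.54 (SE 0.14) and Lsr at 5.33 (SE 0.19).

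For droplet coat and triglyceride synthesis, 2 of 12 rose and 1 fell in the fibroblasts (median 0.31), and 1 of 13 rose and 4 fell in the epithelium (median -0.47). Agpat2, which makes phosphatidic acid on the way to triglyceride, fell in both, by 1.54 in fibroblasts and by 0.72 in epithelium. Lpin2, a phosphatidate phosphatase, rose in the epithelium from 23.3 to 71.8 (1.60, SE 0.23), and Lpin1 of the same family rose in fibroblasts from 2.61 to 18.0 (2.39, SE 0.42). Between the cell types, 8 of 13 were higher in the epithelium and 2 lower.

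In the PPAR family with its partners and coregulators, 6 of 20 rose in the fibroblasts (median 0.22), and 3 of 19 rose and 1 fell in the epithelium (median 0.33). Cebpd, a transcription factor of early adipocyte differentiation, rose in the epithelium from 60.2 to 339 (2.48, SE 0.20) and in fibroblasts from 383 to 921 (1.29, SE 0.23). Ppard, the sister receptor of Pparg, fell in the epithelium from 158 to 52.8 (-1.56, SE 0.20). Between the cell types, 4 of 21 were higher and 7 lower in the epithelium, with Cebpa at 3.50 (SE 0.15) and Cebpb at -2.46 (SE 0.10). For fatty acid oxidation, 4 of 21 rose and 1 fell in the epithelium (median 0.09), 1 of 20 rose and 2 fell in the fibroblasts (median -0.17), and 12 of 21 were higher and 3 lower in the epithelium than in the fibroblasts. Acads and Hadha, enzymes of beta oxidation, were those that fell in fibroblasts, from 155 to 50.7 and from 301 to 143.

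**Figure D4:**
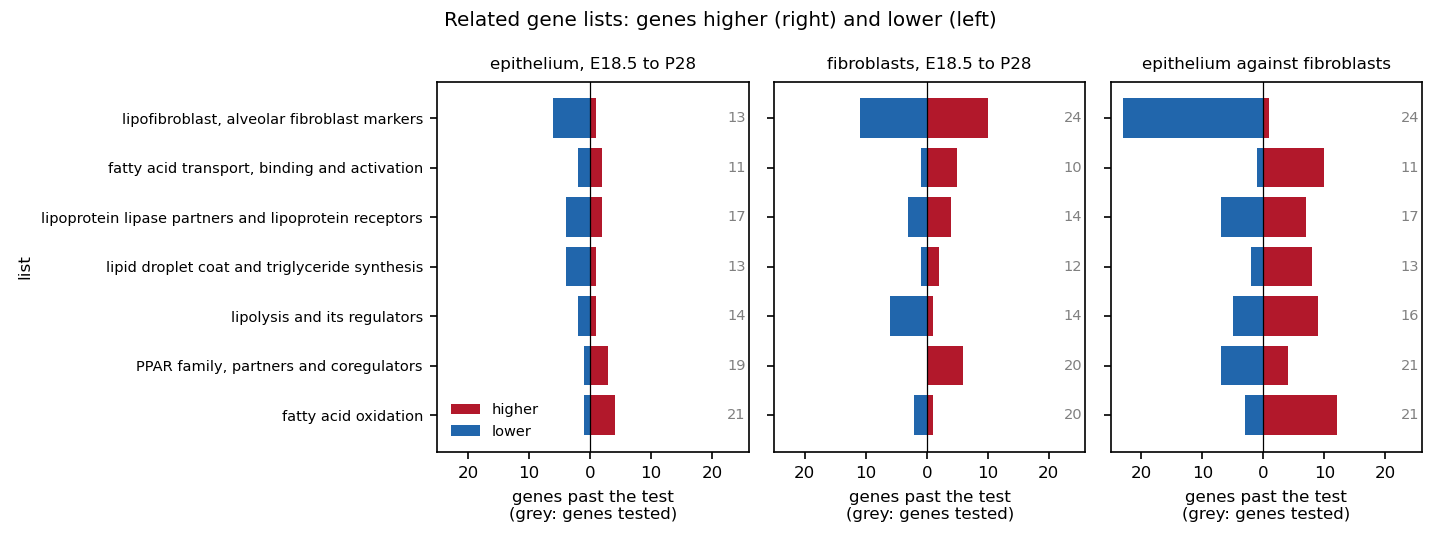
Number of genes past the test (horizontal axis, higher to the right and lower to the left of 0) in each of the 7 related lists (rows), in the epithelium and the fibroblasts from E18.5 to P28 and between the cell types. Grey numbers give the genes tested. The marker list has 23 of 24 on the left in the comparison of the cell types, a direction set by its choice as fibroblast markers.

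The genes whose pattern was most like that of 4 members were named by Pearson correlation of log2(value + 1) over the libraries of 1 cell type, among 2393 fibroblast or 2445 epithelial genes whose mean was 50 or more. The libraries come in pairs of a stage, so the coefficients describe 11 libraries of 6 stages or 10 of 5. Closest to Inmt in the fibroblasts was Ptgis, the prostacyclin synthase, at 0.98, with means of 346 at E18.5, 1370 at P0.5, 193 at P2, 135 at P7, 2094 at P28 and 1228 at P56. Tenc1 followed at 0.94. Closest to fibroblast Plin2 were Josd2 (0.98), Mum1l1 (0.98) and Dynlt1a (0.97), and Josd2 went from 1084 at E18.5 to 144 at P28 and 46.9 at P56. Fibroblast Limch1 was followed by Tmem234 (0.99), Ctr9 (0.91) and Tspan14 (0.91). Like Plin2 and Limch1, the genes named for them were lowest in the single P56 library. From P28 to P56 Mum1l1 went from 64.1 to 16.8 and Tmem234 from 69.2 to 22.0. Coefficients without P56 were not computed. Epithelial Cd36 was followed by Csgalnact2 (0.98), Itpkb (0.97) and the peroxisomal fatty acid transporter Abcd3 (0.97), whose means were 64.0 at E18.5, 149 at P0.5, 103 at P2, 177 at P7 and 191 at P28.

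Among the members themselves, epithelial Plin2 and Pnpla2 had a coefficient of 0.84 over 10 libraries, and Plin2 and Cd36 one of 0.71. In the fibroblasts Plin2 and Pnpla2 had 0.21 over 11 libraries, and Inmt and Pnpla2 had 0.73, both being high at P0.5 and P28.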

How the data were processed

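The labels give 3' SAGE-seq of sorted lung cells with amplified poly(A) RNA. Deposited tables hold 1 signal per gene, normalised per library by the authors; the submitters' processing notes name Bowtie2 2.2.5, R 3.4.0 and mm10, and the scaling, the enzyme and the use of strand are not stated in the sources used here. Within a library, 100% of values were whole multiples of the value of 1 read (tolerance 0.01 of a read), which gave the reads. The 9 members, the 7 related lists and the tests were chosen with earlier results of these data known, so no list is independent evidence. Stage changes were tested on log2(value + 1) with limma 3.58.1 in R 4.3.3 (trended prior variance), over genes at 3 or more in at least 2 libraries (12143 epithelial, 11954 fibroblast), with 1 mean per stage, two-sided, Benjamini-Hochberg over all genes and a threshold of 0.05. Cell types were compared in 20 libraries on reads of the 20004 genes in both tables, scaled with TMM (edgeR 4.0.16; 13386 genes tested). All members were named; of each list, genes with the smallest p past the threshold, at most 4, were eligible to be named, and for 4 members the 3 genes of highest correlation, leaving out predicted genes; some genes that these rules name are not reported here. Alternatives were edgeR, DESeq2 1.42.0, another scaling, a pseudocount of 5, no filter, a replicate block and leaving out each library. The tests were checked on simulated data. Positions are from GENCODE M21 and promoter windows from RefSeq.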

Additional observations from a re-analysis of the deposited data

Results flagged for a closer look

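The change over time was tested for a difference between the cell types in 8 members. It differed for 3 of 8 from E18.5 to P28, where 15.1% of all genes tested were called. From P7 to P28 it differed for 1 of 8, where 8.59% were called. All values are epithelium minus fibroblasts. From E18.5 to P28 the difference was 2.91 (SE 0.23) for Plin2, which rose in the epithelium and fell in the fibroblasts, -2.05 (SE 0.36) for Lpl, which rose in the fibroblasts, and -3.39 (SE 0.64) for Inmt. From P7 to P28 it was -5.94 (SE 0.64) for Inmt. The epithelial side of both Inmt values is 0 to 9 reads per library, and edgeR and DESeq2 called neither. No group had enough libraries for a check of single libraries that lie far from the others of their group.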

How the results depend on the processing

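Of 1280 alternative values for 109 member results, 1159 kept direction and side of the threshold, 48 fell below it and 22 passed it. No called value changed sign, while 51 values that were not called, nor their counterpart, changed sign or became 0, 40 of them on leaving out 1 library and 11 under other settings. Among these the difference between the cell types for Inmt from E18.5 to P0.5 went from -0.71 to 1.84 in DESeq2 and 1.57 in edgeR. The number of members called, over all members tested, moved as follows, and the cause was not tested. These counts hold epithelial Inmt and fibroblast Fabp4, which passed the filter only through P0.5. Those for differences between the cell types hold Cd36 and Fabp4, which passed through 1 cell type. Without epithelial Inmt and fibroblast Fabp4, E18.5 to P0.5 had 2 calls in the epithelium and 3 in the fibroblasts. Without them, P0.5 to P2 had 2 and 4. For the difference between the cell types from E18.5 to P0.5 it was 0, but 3 with a pseudocount of 5 and 0 to 1 leaving out 1 library. From P7 to P28 the difference had 1 call, 0 in edgeR, 2 with total-count scaling and 1 to 2 leaving out 1 library. In the epithelium E18.5 to P0.5 had 3, 1 with no filter and 1 leaving out any 1 library of the groups compared; P0.5 to P2 had 2, 4 in DESeq2, 4 with a pseudocount of 5, 1 with no filter and 0 to 3 leaving out 1 library; and P2 to P7 had 0, 1 in DESeq2, 1 with TMM scaling and 0 to 1 leaving out 1 library. In the fibroblasts, leaving out 1 library gave 1 to 3 for E18.5 to P0.5 (4 in full), 2 to 5 for P0.5 to P2 (5 in full) and 1 to 2 for P7 to P28 (2 in full). Fibroblast P2 to P7 had 2, 1 in edgeR, 0 with no filter, 1 with a pseudocount of 5 and 0 to 1 leaving out 1 library. Of all genes, 14.3%, 8.82% and 3.71% were called in the epithelium at E18.5 to P0.5, P0.5 to P2 and P2 to P7. In the fibroblasts 15.4%, 16.9%, 6.64% and 20.8% were called at the steps from E18.5 to P28, in order. For the differences between the cell types the shares were 3.53% from E18.5 to P0.5 and 8.59% from P7 to P28. Over all genes, another scaling moved the calls from 1455 higher and 2278 lower to 1894 and 1815 for fibroblasts P28 to P56, from 188 and 263 to 270 and 246 for epithelium P2 to P7, from 700 and 1318 to 1040 and 1066 for the difference from E18.5 to P28 and from 417 and 733 to 639 and 570 for that from P7 to P28, where the median of all genes went from -0.05 to 0.13 and from -0.05 to 0.11.

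No pairing by replicate number was seen in the values. Deviations of same-numbered libraries correlated at -0.06 to 0.07 over 20 pairs of stages within a cell type. Between the cell types they correlated at -0.05 to 0.10 over the 5 shared stages. Such low values cannot exclude that same-numbered libraries came from the same animals, which no label states. With the replicate block the number of members called stayed the same in all 15 comparisons, for example 4 in each cell type from E18.5 to P28, and all 109 member results kept their side of the threshold. Depth limits Pparg and Fabp4 in both cell types, Cd36 and Fabp5 in fibroblasts and Inmt in the epithelium.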
